A study of Homo sapiens with 5 samples.

Results

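The mRNAs described here come from 10 genes for heterogeneous nuclear ribonucleoproteins (hnRNPs) and polypyrimidine tract-binding (PTB) proteins: HNRNPA1, HNRNPA2B1, HNRNPC, HNRNPD, HNRNPH1, HNRNPL, HNRNPM, HNRNPU, PTBP1 and PTBP2. They were picked by gene symbol from a table of 25702 genes, each symbol matched 1 row, and all 10 passed a filter of a mean of at least 1 CPM (the read count scaled to a common library size). In the study, RNA bound to PSF (encoded by SFPQ) was immunoprecipitated from LTAD cells, a prostate cancer line held in phenol red-free medium with charcoal-treated serum, and sequenced (RIP-seq). The groups were PSF-RIP after the small molecule No.10-3 at 5 µM (2 libraries, replicates 1 and 2), PSF-RIP after the DMSO vehicle (1 library), and input RNA (2 libraries). By their titles, 1 input was vehicle-treated and 1 was No.10-3-treated, but their column names do not tell them apart, so both inputs served together as 1 baseline. No control immunoprecipitation is among these samples, and nothing says that libraries came from separate cultures, so p-values measure only the spread between these libraries, which may be technical.

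HnRNPs coat transcripts in the nucleus and steer splice site choice, export and decay. PTB proteins bind pyrimidine-rich stretches and mostly repress nearby exons, and PSF took its name as a splicing factor associated with PTB. Several genes of both families, PTBP1 and HNRNPL among them, limit their own mRNA through alternative splicing that leads to its decay. In prostate cancer cells, PSF has been linked to the RNAs of splicing factors.

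The libraries held 1519362 and 3368252 counts (No.10-3 PSF-RIP, replicates 1 and 2), 2181770 (vehicle PSF-RIP), and 4010376 and 3083063 (inputs). A group of 5 abundant noncoding RNAs (RN7SK, RPPH1, RN7SL1, RN7SL2 and RMRP) took 2.63% to 7.81% of counts in PSF-RIP and 51.7% to 55.0% in the inputs. Nuclear protein-coding genes took 73.6% to 82.1% in PSF-RIP and 15.9% to 16.4% in the inputs, so protein-coding RNA as a whole makes up a larger part of a PSF-RIP library than of an input. Counts were therefore scaled with edgeR's TMM factors, which set the bulk of the genes level between libraries, and a scaled CPM below is a CPM of the TMM effective library size. All 11 luminal prostate markers had counts in all 5 libraries, summing to 2949 and 3968 CPM of the total in No.10-3 PSF-RIP, 3023 CPM in vehicle PSF-RIP and 848 and 768 CPM in the inputs. Of the 3 basal and 3 leukocyte markers, KRT5, TP63, PTPRC and CD14 were at 0 throughout, and each list summed to at most 1.19 CPM in any library. Stromal markers (3 of 5 detected, DCN and LUM at 0) summed to 81.6 to 119.6 CPM in PSF-RIP and 9.73 to 10.7 CPM in the inputs, neuroendocrine markers (2 of 3, CHGA at 0) to 94.1 to 152 and 13.95 to 14.5 CPM, and endothelial markers (2 of 2) to 5.94 to 14.5 and 0.324 to 1.25 CPM. All these sums are parts of library totals. With that scaling, 87.2% of all tested genes were called higher in PSF-RIP over input. Higher marker sums in PSF-RIP are thus not read as enrichment of markers. The part of these markers in the results was not tested.

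Taken as a sum, the 10 mRNAs made up more of the protein-coding counts in 2 of the 3 PSF-RIP libraries than in either input, while replicate 1 of No.10-3 was level with the first input and above the second. They held 1618 and 5559 counts in No.10-3 PSF-RIP, 3608 in vehicle PSF-RIP and 934 and 603 in the inputs. Of the nuclear protein-coding counts this was 0.145% (exact 95% binomial interval 0.138 to 0.152%) in No.10-3 replicate 1 and 0.201% (0.196 to 0.206%) in replicate 2. It was 0.217% (0.210 to 0.2245%) in vehicle PSF-RIP, against 0.142% (0.133 to 0.151%) and 0.123% (0.113 to 0.133%) in the inputs. The intervals of No.10-3 replicate 1 and the first input overlap, and those of the other PSF-RIP libraries lie above both inputs. Such intervals cover counting error only. A lower level in bulk RNA cannot tell fewer cells of a type from less RNA per cell.

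The first comparison asked whether these mRNAs were recovered with PSF beyond the typical gene, with all 3 PSF-RIP libraries set against both inputs. HNRNPM stood highest at 2.0-fold, PTBP1 and HNRNPH1 followed at 1.64-fold and 1.67-fold, and HNRNPC stood lowest at 0.695-fold, yet none of the 10 passed edgeR's quasi-likelihood test at a Benjamini-Hochberg adjusted p of 0.05. Over all 13321 tested genes 20.4% were called, 1335 higher (10.0%) and 1384 lower (10.4%). The median log2 ratio was 0.45 over the 10 mRNAs and 0.08 over all tested genes, with 8 of the 10 above 0 against 7050 of 13321. At an unadjusted p under 0.05 stood 1 of the 10 and 4778 of the 13321 genes. DESeq2 called 0 of the 10 and 2229 of all genes, with 1 and 4098 at an unadjusted p under 0.05. Scaled by library totals instead, all 10 were called higher, as were 87.2% of all tested genes (median log2 ratio 2.42), so that count tells nothing about these mRNAs.

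**Figure D1:**
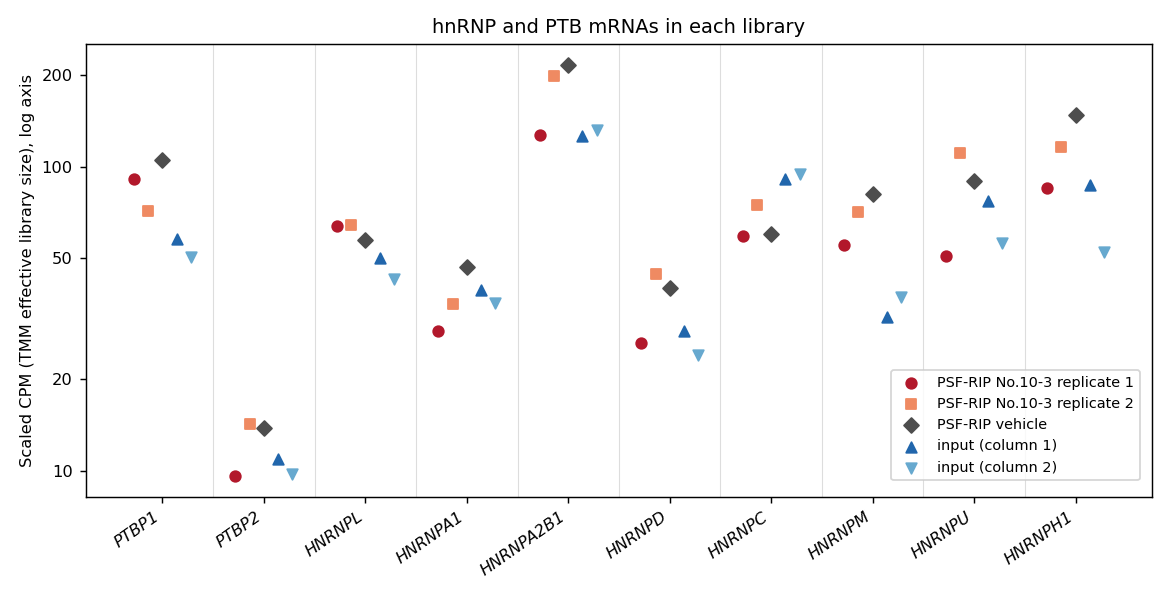
Scaled CPM (log axis) of each of the 10 mRNAs in each library, with 1 point a library: No.10-3 PSF-RIP replicates 1 and 2, vehicle PSF-RIP and the 2 inputs. All PSF-RIP points lie above both inputs for PTBP1, HNRNPL and HNRNPM, and below both for HNRNPC.

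PTBP1 (Entrez ID 5725) encodes the widely expressed PTB protein, a splicing repressor. Its scaled CPM was 91.4 and 71.8 in No.10-3 PSF-RIP, 105 in vehicle PSF-RIP, and 57.9 and 50.7 in the inputs. Every PSF-RIP library was above both inputs, with vehicle highest, and the log2 ratio was 0.715 (SE 0.365, adjusted p = 0.160 by edgeR). Without No.10-3 replicate 2, the lowest PSF-RIP library here, the ratio was 0.84 and passed the threshold (adjusted p = 0.0358 by edgeR). Calls rose over the whole table in that fit, to 4800 of 13170 genes against 2719 of 13321 with all libraries. The pass is thus not particular to PTBP1.

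PTBP2 (58155), the paralog that replaces PTBP1 in developing neurons, was the least abundant of the 10, with raw counts of 26 and 99 in No.10-3 PSF-RIP, 58 in vehicle PSF-RIP, and 17 and 11 in the inputs. In scaled CPM these were 9.62 and 14.3, 13.8, and 10.9 and 9.78, so the groups overlap, with No.10-3 replicate 1 below both inputs. The log2 ratio was 0.29 (SE 0.45, adjusted p = 0.679 by edgeR).

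HNRNPL (3191), which binds CA-rich RNA, had the most even PSF-RIP values of the 10, at 64.0 and 64.4 scaled CPM in No.10-3 PSF-RIP and 57.4 in vehicle PSF-RIP, against 50.2 and 42.7 in the inputs. The PSF-RIP libraries did not overlap the inputs, but the gap was small (log2 ratio 0.41, SE 0.35, adjusted p = 0.422 by edgeR).

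HNRNPM (4670), a splicing regulator that binds GU-rich RNA, was at 55.5 and 71.0 scaled CPM in No.10-3 PSF-RIP, 81.3 in vehicle PSF-RIP, and 32.2 and 37.3 in the inputs. The lowest PSF-RIP library was well above the higher input, and the log2 ratio of 1.0 (SE 0.37) missed the threshold narrowly (adjusted p = 0.0556 by edgeR). Besides library totals, it passed with 4 other settings: without a filter (adjusted p = 0.0484), with protein-coding totals as library sizes (0.0369), with equal weight for both treatments (0.0356), and without No.10-3 replicate 2 (0.0231). With these 4 settings, in the same order, 3040 of 17015, 2848 of 13321, 3413 of 13321 and 4800 of 13170 genes were called. Passing was thus common over the whole table in each. Over all alternatives the adjusted p of HNRNPM ran from 1.67e-06, with library totals, to 0.331.

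HNRNPH1 (3187), which binds G runs, was at 85.4 and 116 scaled CPM in No.10-3 PSF-RIP, 148.5 in vehicle PSF-RIP, and 86.9 and 52.5 in the inputs. Its inputs were the furthest apart of the 10, by 0.73 on the log2 scale, and No.10-3 replicate 1 fell just under the higher one. The log2 ratio was 0.74 (SE 0.38, adjusted p = 0.168 by edgeR), and was 1.16 without the first input and 0.43 without the second.

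HNRNPA2B1 (3181) and HNRNPA1 (3178) encode closely related proteins that silence exons and shuttle between nucleus and cytoplasm. HNRNPA2B1 was at 127 and 199 scaled CPM in No.10-3 PSF-RIP, 217 in vehicle PSF-RIP, and 126 and 132.5 in the inputs. HNRNPA1 was at 28.9 and 35.5 in No.10-3 PSF-RIP, 46.95 in vehicle PSF-RIP, and 39.3 and 35.6 in the inputs. For both, No.10-3 replicate 1 was at or below an input and vehicle PSF-RIP was the highest library. Their log2 ratios were 0.49 (SE 0.38) and -0.01 (SE 0.36), with adjusted p of 0.366 and 0.986 by edgeR. HNRNPA1 counts are uncertain because near copies exist: the transcribed pseudogene HNRNPA1P10 held 29 and 80 counts in No.10-3 PSF-RIP, 55 in vehicle PSF-RIP, and 12 and 15 in the inputs.

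HNRNPC (3183), a core protein of the particle that measures transcript length and binds uridine tracts, was the only one of the 10 with every PSF-RIP library below both inputs. Its scaled CPM was 59.2 and 74.8 in No.10-3 PSF-RIP, 60.1 in vehicle PSF-RIP, and 91.4 and 95.1 in the inputs. The log2 ratio was -0.525 (SE 0.35, adjusted p = 0.282 by edgeR). That sign depends on the scaling: with library totals the log2 ratio was 1.84, still the lowest of the 10.

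HNRNPD (3184), also known as AUF1, which binds AU-rich elements and speeds mRNA decay, was at 26.3 and 44.5 scaled CPM in No.10-3 PSF-RIP, 40.0 in vehicle PSF-RIP, and 29.0 and 24.01 in the inputs. HNRNPU (3192), a chromatin-associated scaffold protein, was at 51.0 and 111 in No.10-3 PSF-RIP, 89.6 in vehicle PSF-RIP, and 77.3 and 56.0 in the inputs. In both, No.10-3 replicate 1 fell within or below the inputs and the other PSF-RIP libraries were above them. HNRNPU had the widest gap between the No.10-3 replicates, 1.12 on the log2 scale. Their log2 ratios were 0.48 (SE 0.38) and 0.33 (SE 0.38), with adjusted p of 0.377 and 0.561 by edgeR. Without No.10-3 replicate 2 the log2 ratio of HNRNPU was 0.0652 and without the second input 0.126, against 0.59 without No.10-3 replicate 1 or the first input. That of HNRNPD was 0.31 without No.10-3 replicate 2.

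In all, the 3 PSF-RIP libraries stood above both inputs for 3 of the 10 mRNAs and below both for 1, against 30.1% and 25.1% of all tested genes, so these counts were near those of the whole table.

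**Figure D2:**
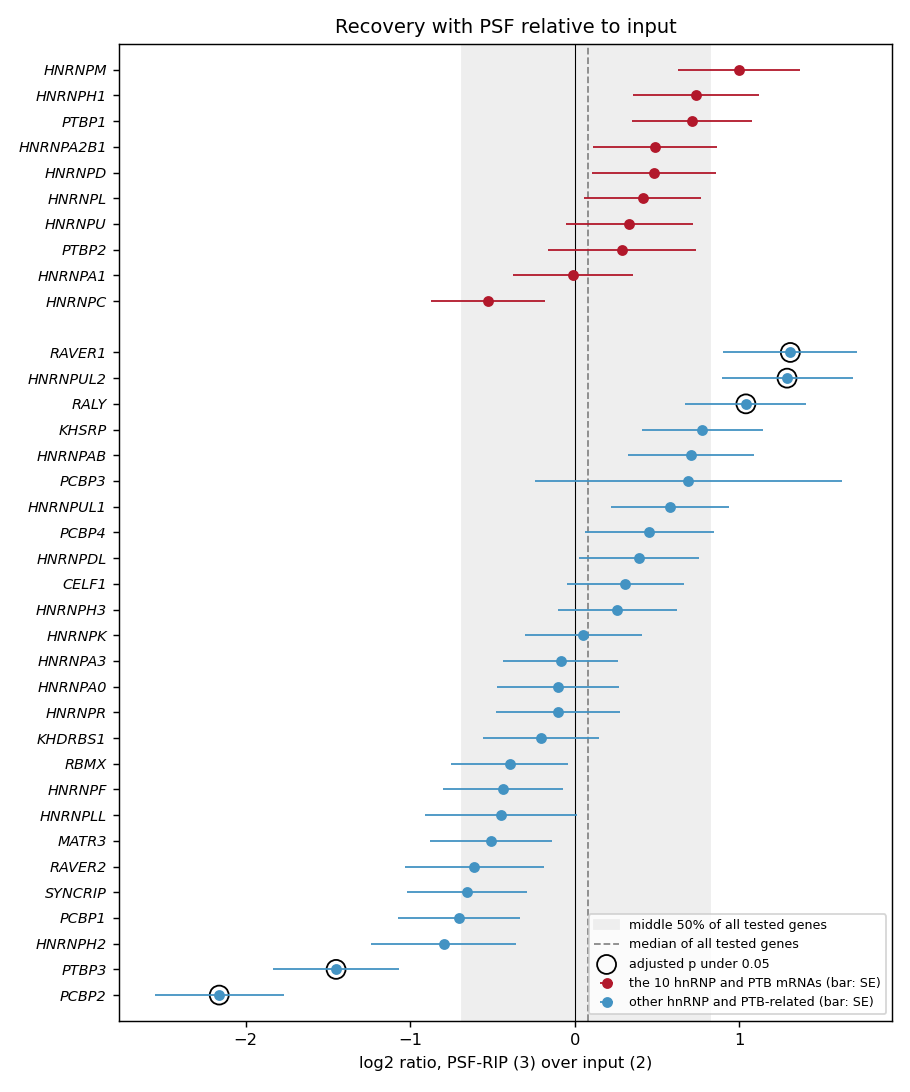
Log2 ratio of PSF-RIP (3 libraries) over input (2 libraries) with its SE for the 10 mRNAs (top) and 26 related genes (bottom), each ordered by ratio; the grey band spans the middle 50% of all tested genes and the dashed line their median of 0.08. No member has the ring of an adjusted p under 0.05, and RAVER1, HNRNPUL2, RALY, PTBP3 and PCBP2 do.

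Shares of the 10 mRNAs' own summed count need no scaling between libraries. HNRNPC took 9.89% (exact 95% interval 8.48 to 11.45%) and 9.32% (8.57 to 10.1%) of that sum in No.10-3 PSF-RIP and 6.98% (6.17 to 7.87%) in vehicle PSF-RIP, against 15.2% (13.0 to 17.7%) and 17.7% (14.8 to 21.0%) in the inputs. HNRNPM took 9.27% and 8.85% in No.10-3 PSF-RIP and 9.45% in vehicle PSF-RIP, against 5.35% and 6.965% in the inputs. Within the family, PSF-RIP thus held relatively less HNRNPC and relatively more HNRNPM, and only for HNRNPC did the intervals of all 3 PSF-RIP libraries clear those of both inputs. HNRNPM was at 0.9375 and 0.950 reads per HNRNPC read in No.10-3 PSF-RIP and 1.35 in vehicle PSF-RIP, against 0.352 and 0.3925 in the inputs; this pair was chosen as the extremes after its values were seen. Shares of HNRNPA1 and PTBP2 were also lower in all PSF-RIP libraries, by margins within their intervals (PTBP2, 1.61% to 1.78% against 1.82% in both inputs). In total 1 of the 10 shares was higher and 3 were lower in every PSF-RIP library. Of all tested genes set over the same sum, 16.5% were higher and 35.7% lower, so these counts were near those of the whole table.

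**Figure D3:**
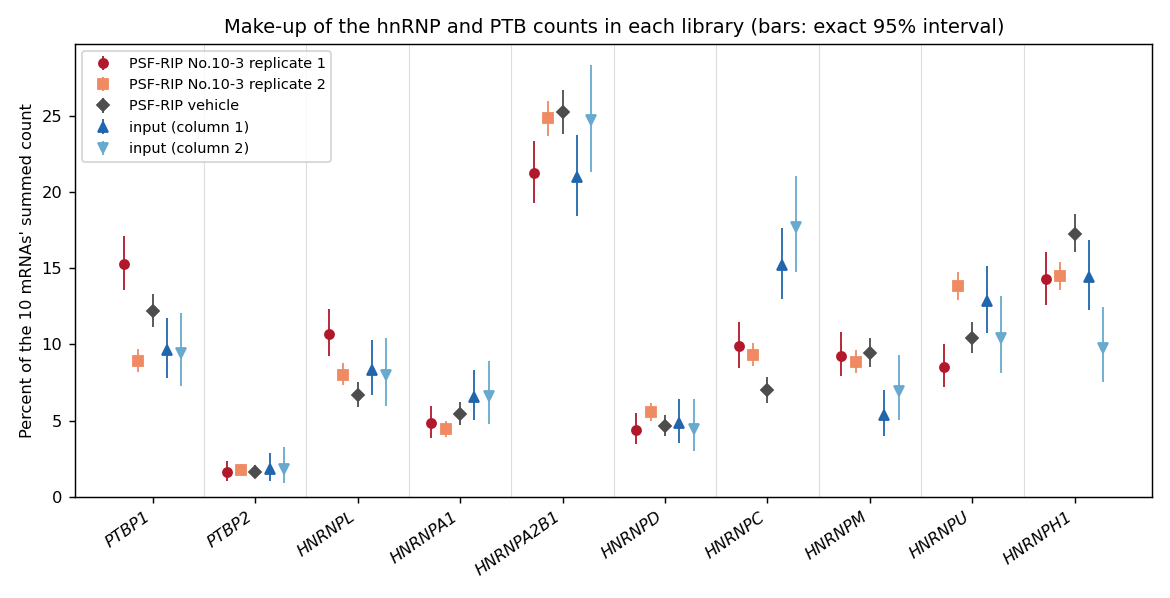
Percent of the 10 mRNAs' summed count that each gene took in each library, with exact 95% binomial intervals for counting error. The 3 PSF-RIP points of HNRNPC (6.98% to 9.89%) lie under both inputs (15.2% and 17.7%), and those of HNRNPM (8.85% to 9.45%) lie above them (5.35% and 6.965%).

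Per length, as scaled CPM per kilobase of the deposited gene length, HNRNPH1 and HNRNPA2B1 led in PSF-RIP at 51.9 ± 14.02 and 49.0 ± 12.9 (SD, n = 3). Their order was not the same in every PSF-RIP library. These SDs are over No.10-3 and vehicle libraries together and do not measure the spread of a difference between genes. HNRNPL at 28.7 ± 1.81, HNRNPM at 27.3 ± 5.13 and PTBP1 at 27.25 ± 5.11 came next, and their order also changed between PSF-RIP libraries. HNRNPC (19.9 ± 2.70), HNRNPA1 (19.3 ± 4.76) and HNRNPD (16.4 ± 4.21) followed without clear steps. HNRNPU (12.25 ± 4.43) ranked 9 in each of the 5 libraries, and PTBP2 was last at 3.61 ± 0.739. In the inputs the order began with HNRNPA2B1 (34.9 ± 1.20, n = 2), HNRNPH1 (31.0 ± 10.8) and HNRNPC (28.7 ± 0.807), and ended again with HNRNPU (9.73 ± 2.19) and PTBP2 (2.97 ± 0.236). HNRNPC ranked 5 to 7 in the PSF-RIP libraries and 2 to 3 in the inputs, while HNRNPM ranked 3 to 5 in PSF-RIP and 7 to 8 in the inputs. PTBP2 was last in all 5 libraries.

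The 26 other hnRNP and PTB-related genes went both ways, with 3 called higher in PSF-RIP, 2 called lower and 21 not called, and a median log2 ratio of -0.09. Over all tested genes 10.0% were called higher and 10.4% lower, so calls among the 26 were near the share of the whole table. RAVER1, which encodes a cofactor of PTB, was at 40.3 ± 10.6 scaled CPM in PSF-RIP (SD, n = 3) and 16.0 ± 3.77 in the inputs (n = 2), a log2 ratio of 1.31 (SE 0.41, adjusted p = 0.0250 by edgeR). HNRNPUL2, an HNRNPU paralog, had a log2 ratio of 1.29 (SE 0.40, adjusted p = 0.0245 by edgeR), and RALY, an HNRNPC paralog, 1.04 (SE 0.37, adjusted p = 0.0458). RALY passed narrowly, at a ratio close to that of HNRNPM (1.0, SE 0.37), which missed narrowly. How calls among the 26 depend on the settings is not given here. In the other direction, PTBP3 was at 28.9 ± 14.3 scaled CPM in PSF-RIP and 79.9 ± 3.58 in the inputs, a log2 ratio of -1.45 (SE 0.38, adjusted p = 0.0109). PCBP2, a poly(C)-binding protein gene, was at 235 ± 44.7 in PSF-RIP and 1049 ± 135 in the inputs, a log2 ratio of -2.16 (SE 0.39, adjusted p = 7.24e-04). In the RefSeq gene table PTBP3 overlaps 5 pseudogenes, among them RN7SL57P and RN7SL430P of 7SL RNA. The 7SL genes RN7SL1 and RN7SL2 belong to the group of 5 noncoding RNAs that together took a larger part of the inputs. The part of 7SL reads in the PTBP3 counts was not tested. PCBP2 overlaps MAP3K12 and PCBP2-OT1, RALY overlaps RALY-AS1 and MIR4755, and HNRNPUL2 overlaps HNRNPUL2-BSCL2. Among the 10 mRNAs' genes, HNRNPU overlaps SNORA100 and a protein-coding locus, PTBP1 overlaps MIR4745, and HNRNPH1 and HNRNPL each overlap a long noncoding RNA. Reads of all these genes are uncertain to that extent. SR protein mRNAs, with 13 tested, had 0 called by edgeR and a median of 0.18. Core spliceosome mRNAs, with 33 tested, had 8 called higher, 4 called lower and a median of 0.59. The shares over all tested genes were again 10.0% higher and 10.4% lower.

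Ratios between paralogs within a library also need no scaling. PTBP1 had 3.58 (exact 95% interval 2.73 to 4.75) and 1.61 (1.39 to 1.86) reads per PTBP3 read in No.10-3 PSF-RIP and 6.30 (4.89 to 8.23) in vehicle PSF-RIP, against 0.703 (0.531 to 0.928) and 0.655 (0.461 to 0.925) in the inputs. HNRNPC had 0.420 and 0.635 reads per RALY read in No.10-3 PSF-RIP and 0.560 in vehicle PSF-RIP, against 1.58 and 1.57 in the inputs. PTBP1 reads thus outnumbered PTBP3 reads in PSF-RIP and were fewer in the inputs, where PTBP3, which overlaps the 7SL pseudogenes, had 128 and 87 counts. HNRNPC reads were fewer than RALY reads in PSF-RIP and outnumbered them in the inputs. PTBP1 over PTBP2 did not separate the groups, at 9.50 and 5.02 in No.10-3 PSF-RIP, 7.60 in vehicle PSF-RIP, and 5.29 and 5.18 in the inputs. HNRNPH1 over HNRNPF was 1.085 and 1.34 in No.10-3 PSF-RIP and 3.30 in vehicle PSF-RIP, against 0.918 and 0.551 in the inputs. Of 15 paralog pairs, 8 (53.3%) had all PSF-RIP ratios on one side of both inputs, as did 56.7% of all pairs of genes with a mean of at least 5 scaled CPM, so such separation was usual in these libraries.

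**Figure D4:**
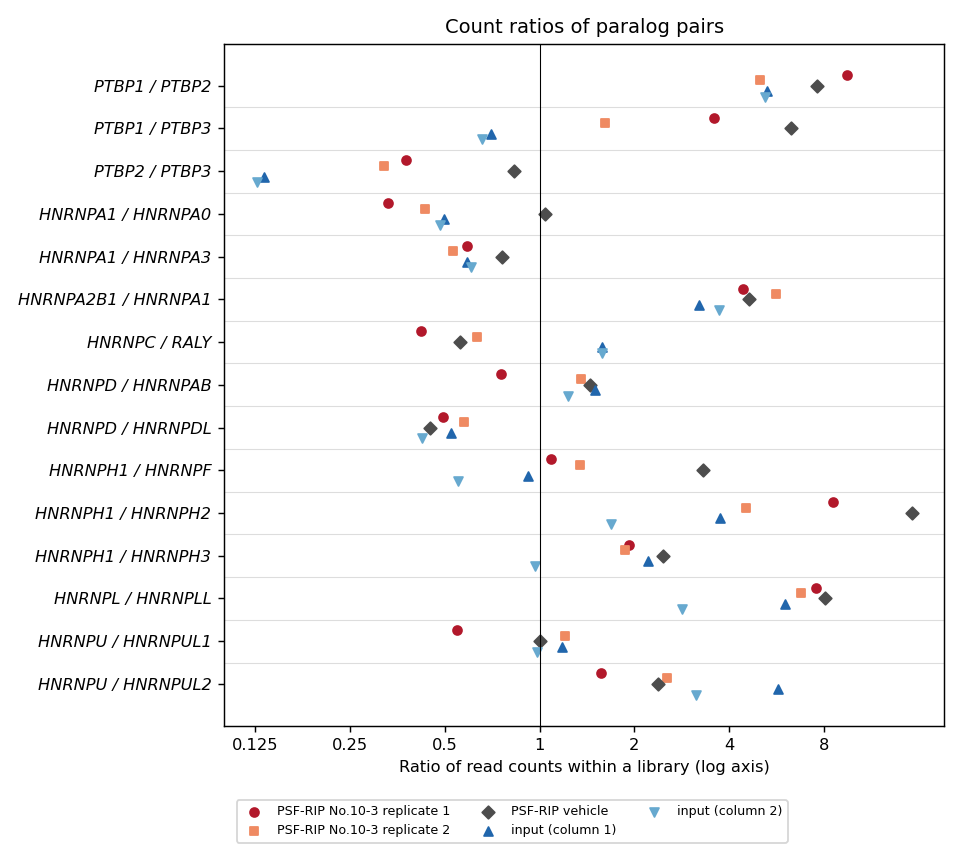
Ratio of read counts between the members of 15 paralog pairs within each library (log axis), with 1 point a library. PTBP1 over PTBP3 is above 1 in all 3 PSF-RIP libraries and below 1 in both inputs, and HNRNPC over RALY is the reverse; PTBP3 overlaps 7SL pseudogenes.

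Set over the inputs by treatment, in a fit of 3 group means, neither treatment's PSF-RIP gave a called member, against 11.5% of all tested genes called with No.10-3 (4.98% higher, 6.50% lower) and 20.5% with vehicle (10.0% higher, 10.4% lower). HNRNPM had a log2 ratio of 0.87 (SE 0.39, adjusted p = 0.135 by edgeR) with No.10-3 and 1.23 (SE 0.46, adjusted p = 0.0507) with vehicle. PTBP1 was at 0.58 (SE 0.39) with No.10-3 and 0.95 (SE 0.46) with vehicle, and HNRNPH1 at 0.53 (SE 0.40) and 1.08 (SE 0.47). HNRNPC was below the inputs with both, at -0.47 (SE 0.38) and -0.63 (SE 0.48). HNRNPA1 was at -0.21 (SE 0.39) with No.10-3 and 0.325 (SE 0.47) with vehicle. The medians of the 10 were 0.38 with No.10-3 and 0.51 with vehicle, against 0.08 and 0.03 over all tested genes. Both rest on the same inputs and the single vehicle library is assumed to vary like the other groups. Without No.10-3 replicate 1, HNRNPM passed the threshold with No.10-3 (adjusted p = 0.0264, with 2003 of 13210 genes called), and the vehicle ratios of HNRNPM, HNRNPH1, PTBP1 and HNRNPA2B1 passed it (0.00211, 0.00425, 0.0163 and 0.0397), as did 4942 of 13210 genes. Without No.10-3 replicate 2, those of HNRNPM, HNRNPH1 and PTBP1 did so (0.00272, 0.00622 and 0.0208), as did 4936 of 13170 genes, and 4 No.10-3 ratios fell below 0 (HNRNPA2B1, HNRNPD, HNRNPU and PTBP2). In these fits each treatment has 1 library and the spread comes from the 2 inputs alone. With vehicle, the members' calls were near the share of all genes called. Calls with No.10-3 in these fits were not read as a result about the members.

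By its title the study addressed the effect of the small molecule on RNA binding by PSF, and 2 No.10-3 libraries and 1 vehicle PSF-RIP library bear on it. No member changed past the test: 0 of 10, and 0 of 13766 genes (0%), were called by edgeR, where 0 of the 10 and 563 of all genes had an unadjusted p under 0.05. By DESeq2 the number called was 0 as well, and 123 genes had an unadjusted p under 0.05. Log2 changes of the 10 ran from -0.56 (HNRNPH1, SE 0.58) to 0.16 (HNRNPC and HNRNPL, SE 0.57 each), each with an adjusted p of 0.998. The SEs ran from 0.56 to 0.63, as large as the largest of these changes. The median was -0.28 over the 10 and 0.04 over all tested genes.

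The treated replicates differed from each other. Over 13321 genes, Pearson's r of log2 scaled CPM was 0.922 between them, against 0.951 between replicate 1 and vehicle PSF-RIP. Between replicate 2 and vehicle PSF-RIP it was 0.91, so the PSF-RIP libraries did not group by treatment. With the first and second input, r was 0.874 and 0.849 for replicate 2, the PSF-RIP library most like the inputs. It was 0.824 and 0.81 for replicate 1, and 0.808 and 0.764 for vehicle PSF-RIP. Relative to vehicle PSF-RIP, HNRNPH1 was at -0.79 in replicate 1 and -0.36 in replicate 2 (log2, prior count of 2), HNRNPA1 at -0.69 and -0.41, and HNRNPM at -0.55 and -0.20. PTBP1 was at -0.20 and -0.56, the one case among the 10 with the lower value in replicate 2. HNRNPU was at -0.81 and 0.30 and HNRNPD at -0.60 and 0.14, so the replicates lay on opposite sides of vehicle. HNRNPL was at 0.155 in both replicates. In all, 5 of the 10 were lower than vehicle in both replicates and 1 was higher in both, against 32.6% and 33.1% of all tested genes, and both changes share the vehicle library. The median change of the 10 was -0.57 in replicate 1 and -0.05 in replicate 2, so the values were lower in replicate 1, the shallowest library. Mitochondrially encoded RNAs, an index of library make-up, took 12.2% of counts in replicate 1, 9.49% in replicate 2 and 6.91% in vehicle PSF-RIP, and their part in these differences was not tested. The amount of each RNA in the cells is not separated from its recovery with PSF here, since the inputs could not be assigned to a treatment.

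**Figure D5:**
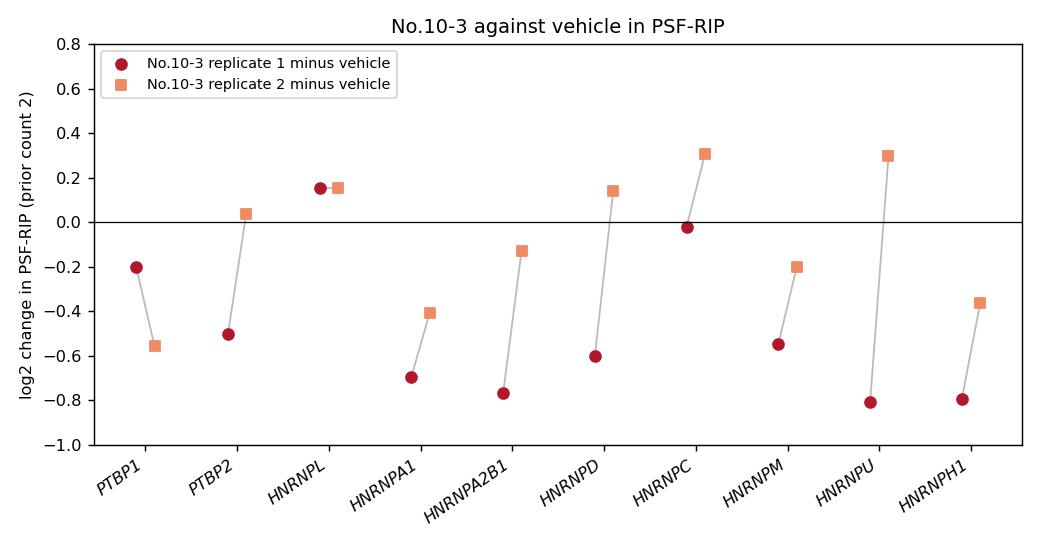
Log2 change in PSF-RIP of each No.10-3 replicate from the single vehicle library for the 10 mRNAs; lines join the replicates. HNRNPL sits at 0.155 in both, and HNRNPU spans from -0.81 in replicate 1 to 0.30 in replicate 2.

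Averaged over the 10 mRNAs, the centred log2 scaled CPM was -0.15 and 0.26 in No.10-3 PSF-RIP, 0.33 in vehicle PSF-RIP, and -0.13 and -0.31 in the inputs. Of the 10, PTBP2 lay closest to this mean profile, with a root-mean-square distance of 0.0741 over the 5 libraries, and HNRNPC furthest, at 0.473. Each member is part of that mean, which by itself shortens its distance. Among 5710 other genes with a mean of at least 20 scaled CPM, the nearest were GGNBP2 (0.0358), YTHDC1 (0.0381), NCBP1 (0.0538), EML1 (0.0566) and NARS1 (0.0620), against a median distance of 0.517. YTHDC1 encodes a nuclear reader of N6-methyladenosine, and NCBP1 the large subunit of the nuclear cap-binding complex. The functions of GGNBP2, which was nearest, and of EML1 and NARS1 are not described here. Whether the nearest genes share a function was not tested. The mean profile mixes unlike members, so these genes resemble the average and not each mRNA. They were picked for the smallest distance, so their closeness beside the median was set by that choice.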

How the data were processed

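RNA recovered with PSF (3 libraries) and input RNA (2 libraries) from LTAD cells were compared. The authors deposited 1 table of whole-number read counts per Entrez gene with gene lengths and FPKM values; counts were taken as raw, and the 5 FPKM columns were not used. Per the submitters' processing notes, TopHat2 2.1.0, Bowtie2 2.2.6, Bowtie and hg19 were used, in roles the notes do not state; no source used here gives the counter, its strand setting or its handling of reads with several matches. Both compound-named columns without PSF in their name were taken as PSF-RIP by elimination, since 2 others are named input. Tests covered the genes whose mean reached 1 CPM (over all 5 libraries, or the 3 PSF-RIP libraries for No.10-3 against vehicle), with edgeR 4.0.16 (R 4.3.3): TMM, glmQLFit, glmQLFTest, Benjamini-Hochberg, threshold 0.05. An SE is the log2 ratio over the square root of the F statistic. DESeq2 1.42.0 was an alternative. The fits were tested on simulated data. The planted changes were larger than the main ratios of the 10 mRNAs, so those runs do not bear on changes of that size. Vehicle over input was not simulated. Biotypes came from RefSeq by Entrez ID, for 23696 genes. The 10 genes, the other lists and the paralog pairs were chosen with earlier results of these data known. All 10 genes were named, with related genes past the threshold and the 5 genes nearest to the mean profile; the pair HNRNPM and HNRNPC was picked after seeing values. Other alternatives were RLE, upper-quartile and total-count scaling, protein-coding totals (added after seeing the data), other filters, removal of a length trend, and leaving out each library.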

Additional observations from a re-analysis of the deposited data

Results flagged for a closer look

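HNRNPA1 was below the mean of the inputs in both No.10-3 PSF-RIP libraries and above it in vehicle PSF-RIP, which is what drew attention to it; the difference of No.10-3 minus vehicle was -0.544 on the log2 scale. The test of that difference was edgeR's contrast of No.10-3 with vehicle PSF-RIP (SE 0.56, adjusted p = 0.998), and over its alternatives the adjusted p ran from 0.571 to 0.999. HNRNPA1 counts were 78 and 246 in No.10-3 PSF-RIP, 197 in vehicle PSF-RIP, and 61 and 40 in the inputs.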

How the results depend on the processing

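Scaling by library totals, which leaves the inputs' noncoding RNA in the denominator, raised the number of genes called to 11662 for all PSF-RIP over input, 11586 for No.10-3 PSF-RIP over input and 9775 for vehicle PSF-RIP over input, with 10 of the 10 mRNAs called in each; HNRNPA1 then turned to 2.34 and 2.15 in the first pair of comparisons, and HNRNPC to 1.84, 1.89 and 1.72 in all of them. For all PSF-RIP over input, 1 member (HNRNPM) was called without a filter, with protein-coding totals and with equal weight of the treatments. Of all genes, 3040 of 17015, 2848 of 13321 and 3413 of 13321 were called in these settings. HNRNPA1, near 0, turned to 0.0344, 0.0883 and 0.0557 in them. For vehicle over input, 1 member (HNRNPM) was called without a filter, with the length trend removed and with protein-coding totals. Of all genes, 2878 of 17015, 3275 of 13321 and 2668 of 13321 were called there. DESeq2 called 723 genes with No.10-3 and 1380 with vehicle over input, against 1529 and 2728 by edgeR. Leaving out 1 library gave 602 to 4800 genes and 0 to 2 members for all PSF-RIP over input, 234 to 4073 and 0 to 1 for No.10-3 over input, and 332 to 4942 and 0 to 4 for vehicle over input. The lowest counts came without the second input column; the highest came without No.10-3 replicate 2, or replicate 1 for vehicle. For No.10-3 over vehicle it gave 866 genes without replicate 1 and 26 without replicate 2, in a fit with the inputs, and 0 members. Leaving out a library also turned HNRNPA1 over input (-0.22 to 0.14) and, for No.10-3 over input, HNRNPA2B1 (-0.0344 to 0.62), HNRNPD (-0.0337 to 0.73), HNRNPU (-0.405 to 0.72), PTBP2 (-0.13 to 0.45) and the members' median less that of all genes (-0.0279 to 0.44). For No.10-3 over vehicle it turned HNRNPD (-0.61 to 0.14), HNRNPU (-0.81 to 0.29), PTBP2 (-0.52 to 0.0324) and HNRNPC (-0.0196 to 0.30), and moved the members' median less that of all genes (-0.575 to -0.0642). The causes were not tested. No paired analysis was possible because the input columns carry no treatment and the single vehicle library has no numbered partner. Input counts of 11 to 196 a gene limit the precision of every ratio over input.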
